A study of Mus musculus with 12 samples.

Results

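Messenger RNA levels of 10 genes of the NLRP3 inflammasome and of NF-kB signalling were followed in mouse kidney when the transcription factor GABP was to be raised or lowered. The genes were Nlrp3, Pycard, Casp1, Gsdmd, Il1b and Il18 on the inflammasome side and Nfkb1, Rela, Nfkbia and Icam1 on the NF-kB side. They were found in the deposited expression table by the mouse gene identifiers that carry these symbols, and all 10 were present among its 21899 genes. The rule that matched genes to rows used no measured value, while the genes themselves were chosen with earlier results of these data known. Of the 10 genes, 9 were expressed highly enough to be tested.

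The series compared kidneys of 4 groups, with 3 libraries in each, and its title names Gli1 as the target gene of GABP. The db/m-GABP-OE group carried overexpression of GABP on the lean db/m background, and the db/db-GABP-KD group knockdown of GABP on the diabetic db/db background, as labelled. The other groups were db/db-veh and db/m-veh, which received vehicle. db/db mice are homozygous for a leptin receptor mutation and become obese and diabetic, while db/m mice carry one copy and stay lean. The sources used here do not give how GABP was changed, the agent and dose, or the age and sex of the mice. Kidneys of 6 mice were taken per group and 3 tissues were mixed for an extraction, so that 3 separate pools would have to share animals. It is not stated whether each library is its own pool, and p-values measure only the spread between these libraries, which may be technical.

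The inflammasome is a cytosolic complex in which the sensor NLRP3 recruits the adaptor ASC, the product of Pycard, and through it the protease caspase-1. Active caspase-1 cuts the precursors of interleukin-1 beta and interleukin-18 and also cuts gasdermin D, whose freed part forms membrane pores through which the cytokines leave the cell. NF-kB dimers such as p50 (from Nfkb1) with p65 (Rela) are held in the cytoplasm by inhibitors such as IkB alpha (Nfkbia) until upstream kinases mark the inhibitor for degradation. The freed dimers bind kappaB sites and raise many inflammatory genes, among them Icam1, Il1b, Nlrp3 and Nfkbia itself, which ends the response. Caspase-1 and gasdermin D are controlled largely by cleavage, which messenger RNA does not show.

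Sequence upstream of the start site was at hand for 8 members in RefSeq's table (GRCm38.p6), while Gsdmd and Nfkb1 had no entry there. A pair of them, Icam1 and Nfkbia, held the same kappaB-type letters, and they are printed because both genes are textbook NF-kB targets and their levels are followed below. Capitals mark those letters, with a further C in Nfkbia that belongs to the longer kappaB consensus named below. The 250 bases end at the base before the start site, and both sequences read 5′ to 3′ on the gene's strand. Icam1 lies at chr9:21015690-21015939 on the plus strand and Nfkbia at chr12:55492648-55492897 on the minus strand.
Icam1: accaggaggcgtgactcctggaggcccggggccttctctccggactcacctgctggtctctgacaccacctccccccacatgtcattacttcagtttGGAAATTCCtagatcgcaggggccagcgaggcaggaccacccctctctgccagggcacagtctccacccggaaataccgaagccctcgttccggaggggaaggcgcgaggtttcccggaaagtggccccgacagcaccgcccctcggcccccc
Nfkbia: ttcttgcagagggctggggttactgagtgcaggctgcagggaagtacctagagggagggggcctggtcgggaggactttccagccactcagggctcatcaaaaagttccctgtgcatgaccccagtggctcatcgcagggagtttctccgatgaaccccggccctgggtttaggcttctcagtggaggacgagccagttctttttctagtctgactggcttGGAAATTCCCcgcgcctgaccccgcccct

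The letters GGAAATTCC, searched on both strands and chosen after these sequences had been read, began 153 bases before the start of Icam1 and 29 bases before the start of Nfkbia. They were present in 94 of 32851 promoters of the same length (0.286%). With the 2 bases before them they formed an identical stretch of 11 bases in both windows, ttggaaattcc, which 8 of the 32851 promoters held (0.0244%). The longer kappaB consensus, which overlaps these letters in Nfkbia, was found in 1281 promoters (3.90%), among them Nfkbia and 1 of 2 windows of Nlrp3, where it began 186 bases before the start. For the ETS family, to which GABP belongs, the core CCGGAA was found in 12.03% of promoters and occurred 3 times in Icam1, beginning 86, 65 and 39 bases before the start. It did not occur in the windows of the other members, and the longer CCGGAAGT (2.88% of promoters) occurred in none of these windows. Such matches describe letters in a short window and do not show binding.

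Expression is given as FPKM, fragments per kilobase of exon and per M fragments (M, 1e6), which the authors deposited for each gene and library. Whole fragment counts could be recovered for nearly all genes, and the libraries held 6.78 to 9.70 M fragments, of which mitochondrially encoded genes took 47.9% to 86.0%. This left 1.08 to 4.39 M fragments of nuclear genes, fewest in db/db-veh 2 and most in db/db-GABP-KD 1, and FPKM divides by a total that includes the mitochondrial fragments. Over the 12897 genes tested, the medians of the log2 fold change were 0.38 for db/m-GABP-OE relative to db/m-veh, 0.42 for db/db-GABP-KD relative to db/db-veh and -0.24 for db/db-veh relative to db/m-veh. Median-of-ratios scaling, which brought these medians to 0.04, 0.00 and 0.01, was therefore used as a second scale, and values are as deposited unless that scaling is named. Gabpa, which encodes the DNA-binding subunit, averaged 3.50 ± 0.18 FPKM in db/m-GABP-OE, 4.23 ± 2.10 FPKM in db/db-GABP-KD, 2.00 ± 0.32 FPKM in db/db-veh and 2.22 ± 0.39 FPKM in db/m-veh (SD, n = 3 each), so it was not lower in the libraries labelled as knockdown. After median-of-ratios scaling Gabpa averaged 2.69 and 3.52 in the GABP-OE and GABP-KD groups, against 2.83 in db/db-veh and 2.33 in db/m-veh. Gli1 averaged 1.37 ± 0.90 FPKM in db/m-GABP-OE, against 0.160 ± 0.089 FPKM in db/m-veh, and 0.0441 ± 0.036 FPKM in db/db-GABP-KD, against 0.492 ± 0.410 FPKM in db/db-veh (SD, n = 3 each). The names db/m-GABP-OE and db/db-GABP-KD, and GABP-OE and GABP-KD for short, stand below for the libraries so labelled. All 10 kidney markers were detected in all 12 libraries.

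The sensor Nlrp3 (chr11:59541568-59566956, plus strand, GRCm38) was near the limit of detection everywhere. It had 25 fragments over the 3 db/m-GABP-OE libraries, 15 over db/db-GABP-KD, 9 over db/db-veh and 16 over db/m-veh, and the group means were 0.229, 0.147, 0.0989 and 0.158 FPKM in the same order. In db/db-veh 3 it had 0 fragments, where a count of 0 allows up to 3. Nlrp3 reached 0.3 FPKM in 1 library alone, below the 3 libraries required for a test, and its ranges overlapped in every comparison. The ratio of its fragments in db/m-GABP-OE to those in db/m-veh, per fragment sequenced, was 1.45, with a 95% exact counting interval of 0.743 to 2.90. Per fragment of nuclear genes the ratio was 1.06, with an interval of 0.547 to 2.13.

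The adaptor gene Pycard (chr7:127989708-127993867, minus strand) was likewise low and did not separate the groups. It had 0.845, 1.76 and 0.980 FPKM in db/m-GABP-OE, 0.343, 0.705 and 0.487 FPKM in db/db-GABP-KD, 0.582, 0.0341 and 0.754 FPKM in db/db-veh, and 0.978, 0.657 and 0.704 FPKM in db/m-veh. The ranges overlapped in all 3 comparisons, and the log2 fold change of db/m-GABP-OE over db/m-veh was 0.38 ± 0.32 (SE; limma adjusted p = 0.569), close to the median of all genes, and 0.09 ± 0.34 (adjusted p = 0.999) after median-of-ratios scaling. Its exons overlap Gm45205 on the other strand, and because the strand setting is not given, reads of the pair cannot be told apart.

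Casp1 (chr9:5298517-5307265, plus strand), the protease, was higher in each db/m-GABP-OE library than in any db/m-veh library. It had 0.918, 2.30 and 1.00 FPKM in db/m-GABP-OE, against 0.558, 0.328 and 0.205 FPKM in db/m-veh, and 0.982, 0.372 and 0.272 FPKM in db/db-GABP-KD, against 0.470, 0.372 and 0.498 FPKM in db/db-veh. The second db/m-GABP-OE library was the highest of all 12, and the db/db-GABP-KD range enclosed that of db/db-veh. The log2 fold change of db/m-GABP-OE over db/m-veh was 1.09 ± 0.31 (SE; limma adjusted p = 0.0865) and 0.80 ± 0.27 (adjusted p = 0.355) after median-of-ratios scaling, so Casp1 did not pass the threshold of 0.05. The values rest on 123 fragments in db/m-GABP-OE, against 29 in db/m-veh.

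Gsdmd (chr15:75862327-75867408, plus strand), which encodes the pore-forming gasdermin D, had its 3 highest values in db/m-GABP-OE. They were 3.73, 5.51 and 3.87 FPKM, against 2.30, 1.85 and 1.35 FPKM in db/m-veh. In db/db kidneys it had 0.697, 1.42 and 1.62 FPKM in db/db-GABP-KD, against 1.92, 1.04 and 0.931 FPKM in db/db-veh. The lean groups did not overlap and the diabetic groups did. In db/m-GABP-OE the log2 fold change was 1.06 ± 0.33 (SE; limma adjusted p = 0.120), and 0.67 ± 0.35 (adjusted p = 0.752) after median-of-ratios scaling.

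The cytokine genes differed from each other. Il18 (chr9:50554827-50581840, plus strand), whose product is stored as a precursor in many epithelia, had 1.61, 3.00 and 2.15 FPKM in db/m-GABP-OE, against 0.636, 0 and 0.831 FPKM in db/m-veh. It had 0.689, 0.678 and 0.138 FPKM in db/db-GABP-KD, against 1.00, 0.503 and 0.126 FPKM in db/db-veh. All 3 db/m-GABP-OE libraries stood above the other 9, which overlapped one another. The log2 fold change of db/m-GABP-OE over db/m-veh was 1.56 ± 0.40 (SE; limma adjusted p = 0.0544), the largest of any member, and 1.28 ± 0.40 (adjusted p = 0.315) after median-of-ratios scaling. It rests on few fragments, 64 in db/m-GABP-OE against 14 in db/m-veh, and the ratio per fragment sequenced was 4.23 with a 95% exact counting interval of 2.35 to 8.17. Per fragment of nuclear genes the ratio was 3.12, with an interval of 1.73 to 6.02.

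Il1b (chr2:129364570-129371139, minus strand), which NF-kB induces in myeloid cells, was spread widely in the db/db groups and in db/m-veh. It had 0.871, 1.08 and 0.855 FPKM in db/m-GABP-OE, 1.18, 1.22 and 0.373 FPKM in db/db-GABP-KD, 0.387, 0.544 and 2.94 FPKM in db/db-veh, and 0.0573, 0.385 and 0.955 FPKM in db/m-veh. The highest value was that of db/db-veh 3, and no comparison separated the groups. The log2 fold change of db/m-GABP-OE over db/m-veh was 0.68 ± 0.45 (SE; limma adjusted p = 0.493), and 0.43 ± 0.47 (adjusted p = 0.999) after median-of-ratios scaling. Its exons overlap Il1bos on the other strand, so these reads cannot be assigned with certainty.

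**Figure D1:**
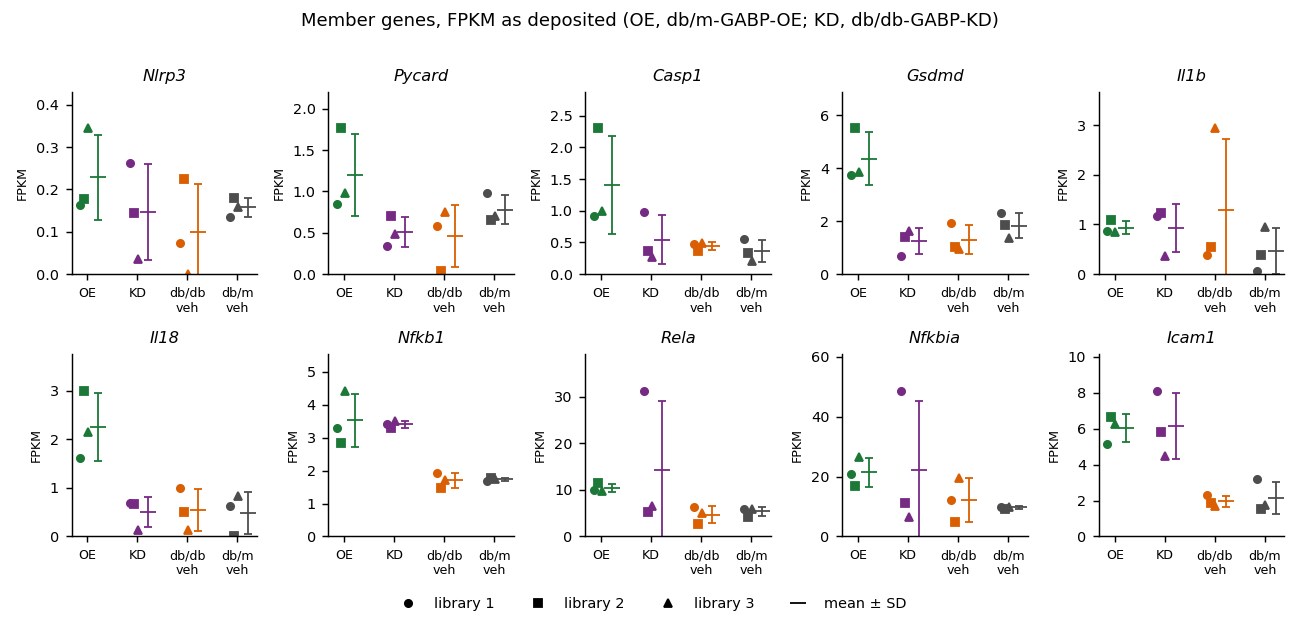
FPKM of the 10 members in each library (circle, square and triangle for libraries 1, 2 and 3), by group along the x axis, with the group mean and SD (n = 3) drawn beside them and SD bars cut at 0. The 3 db/m-GABP-OE values of Il18 (1.61 to 3.00 FPKM) lie above all other libraries, and db/db-GABP-KD 1 stands far above its group for Rela and Nfkbia.

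On the NF-kB side, Nfkb1 (chr3:135584655-135691547, minus strand), which encodes p105 and its product p50, was higher in both GABP-labelled groups than in their vehicle groups. It had 3.31, 2.85 and 4.42 FPKM in db/m-GABP-OE, against 1.69, 1.78 and 1.76 FPKM in db/m-veh, and 3.43, 3.28 and 3.50 FPKM in db/db-GABP-KD, against 1.92, 1.46 and 1.73 FPKM in db/db-veh. Neither pair overlapped as deposited. Both pairs had a log2 fold change of 0.83 ± 0.28 (SE; limma adjusted p = 0.164 for db/m-GABP-OE and adjusted p = 0.345 for db/db-GABP-KD), and after median-of-ratios scaling it was 0.45 ± 0.26 (adjusted p = 0.857) and 0.34 ± 0.26 (adjusted p = 0.890), where the diabetic groups overlapped.

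Rela (chr19:5637483-5648130, plus strand), which encodes p65, had 10.1, 11.4 and 9.85 FPKM in db/m-GABP-OE, against 5.91, 4.25 and 5.99 FPKM in db/m-veh. These groups did not overlap. In db/db-GABP-KD it had 31.3, 5.23 and 6.62 FPKM, against 6.43, 2.66 and 5.001 FPKM in db/db-veh, so the first library alone was far above the vehicle range. All groups share 1 estimate of spread in the fit. The log2 fold change of db/m-GABP-OE over db/m-veh was 0.91 ± 0.52 (limma adjusted p = 0.427) with that library and 0.91 ± 0.33 (adjusted p = 0.131) without it. With all libraries it was 0.49 ± 0.34 (adjusted p = 0.935) after median-of-ratios scaling.

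Nfkbia (chr12:55489410-55492647, minus strand), the inhibitor that NF-kB itself induces, was the most abundant member in every group. It had 20.8, 16.9 and 26.6 FPKM in db/m-GABP-OE, against 9.92, 9.21 and 9.91 FPKM in db/m-veh, a ratio of means of 2.21 with no overlap. Its values in the diabetic groups were 48.6, 11.1 and 6.54 FPKM in db/db-GABP-KD, against 12.3, 4.92 and 19.4 FPKM in db/db-veh, and they overlapped. Relative to db/m-veh the log2 fold change was 1.08 ± 0.60 (SE; limma adjusted p = 0.407), and 0.66 ± 0.43 (adjusted p = 0.918) after median-of-ratios scaling.

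Icam1 (chr9:21015985-21028817, plus strand) encodes an adhesion molecule that holds leukocytes to endothelium and is also made by injured tubule cells. It had 5.16, 6.67 and 6.27 FPKM in db/m-GABP-OE, against 3.19, 1.55 and 1.77 FPKM in db/m-veh, and 8.12, 5.83 and 4.50 FPKM in db/db-GABP-KD, against 2.30, 1.87 and 1.67 FPKM in db/db-veh. Of the 9 members tested it was the single one whose libraries did not overlap in either pair on both scales. The share of all genes that met this joint rule was not counted, so it does not set Icam1 apart from other genes. In single pairs, 30.4% (db/m-GABP-OE) and 17.3% (db/db-GABP-KD) of all genes were higher without overlap as deposited. After median-of-ratios scaling these shares were 9.72% and 4.63%. The log2 fold change was 1.33 ± 0.34 for db/m-GABP-OE (SE; 95% interval 0.62 to 2.04; limma adjusted p = 0.0508) and 1.41 ± 0.34 for db/db-GABP-KD (0.70 to 2.12; adjusted p = 0.229). After median-of-ratios scaling it was 0.94 ± 0.27 (adjusted p = 0.245) and 0.89 ± 0.27 (adjusted p = 0.505). Icam1 shares exon sequence with Gm47079 on the other strand, whose reads cannot be told apart from its own.

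The members' levels kept much of their order across groups. Nfkbia averaged 21.4 ± 4.89 FPKM in db/m-GABP-OE, 22.1 ± 23.1 FPKM in db/db-GABP-KD, 12.2 ± 7.25 FPKM in db/db-veh and 9.68 ± 0.41 FPKM in db/m-veh (SD, n = 3 each), followed by Rela and then Icam1 in all 4. Nfkbia and Rela overlapped in both db/db groups and did not in either db/m group. Below Icam1 most neighbours in the order overlapped, and Nlrp3 was last in all 4 groups. FPKM divides by the length of all annotated exons, which for Nfkb1 (12061 bases) is well above its longest principal transcript (4117 bases). On the length of that transcript Nfkb1 would average 10.3 FPKM in db/m-GABP-OE and 5.10 FPKM in db/m-veh. Icam1 would average 10.4 and 3.73 FPKM on its own longest principal transcript. Nfkb1 would thus be close to Icam1 in db/m-GABP-OE and above it in db/m-veh. It would also be above Icam1 in db/db-veh (4.99 against 3.35 FPKM).

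In db/m-GABP-OE relative to db/m-veh none of the 9 members tested passed an adjusted p of 0.05 in limma, where 1.9% of all genes did (245 of 12897, 238 of them higher). At an unadjusted p under 0.05, 5 members were higher (Casp1, Gsdmd, Il18, Nfkb1 and Icam1), against 14.5% of all genes, and 3 were after median-of-ratios scaling (Casp1, Il18 and Icam1), against 5.51% of all genes. Libraries did not overlap for 7 members, all higher (every member tested but Pycard and Il1b), against 30.4% of all genes, and the same 7 did not overlap after median-of-ratios scaling, against 9.72% of all genes. The members' median log2 fold change was 1.06 beside 0.38 over all genes, and 0.66 beside 0.04 after scaling.

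How near these values lay to the threshold shows in the alternatives. Without db/db-GABP-KD 1, a library of another group that enters the shared estimate of spread, 4 members passed, as did 559 of the 12897 genes against 245 with all libraries: Icam1 (limma adjusted p = 0.0184), Il18 (adjusted p = 0.0323), Casp1 (adjusted p = 0.0330) and Gsdmd (adjusted p = 0.0462). Without db/m-veh 1 Icam1 passed (271 genes in all), and without db/db-GABP-KD 3 Il18 did (267 genes in all). With library weights estimated by limma 7 members passed (every member tested but Pycard and Il1b), as did 2757 genes of the table. None passed after median-of-ratios scaling (0.209% of all genes did), with all libraries or without any 1 of them.

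**Figure D2:**
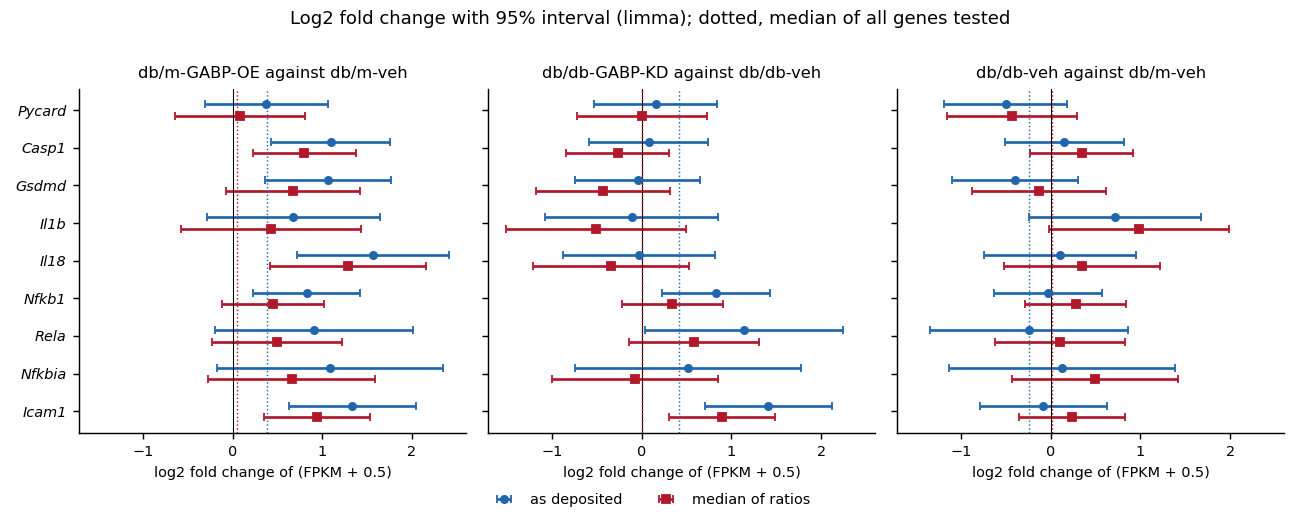
Log2 fold change of FPKM + 0.5 (x axis) for the 9 members tested, with 95% intervals from limma, as deposited (blue circles) and after median-of-ratios scaling (red squares), in 1 panel per comparison. Dotted lines mark the median of all genes tested. In db/m-GABP-OE relative to db/m-veh all 9 points lie above 0 on both scales, while in db/db-GABP-KD relative to db/db-veh Icam1 alone has an interval above 0 on both.

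In db/db-GABP-KD relative to db/db-veh none of the 9 members passed, and no gene of the table did (0% of 12897, with 1839 at an unadjusted p under 0.05). After median-of-ratios scaling 0.0388% of genes and again none of the members did. The inflammasome members Pycard, Casp1, Gsdmd, Il1b and Il18 had log2 fold changes of -0.11 to 0.16, below the all-gene median of 0.42, and of -0.51 to 0.01 after median-of-ratios scaling, beside 0.00 over all genes. At an unadjusted p under 0.05, 3 members were higher (Nfkb1, Rela and Icam1), against 13.7% of all genes, and after median-of-ratios scaling Icam1 alone, against 2.88%. Libraries did not overlap for Nfkb1 and Icam1, against 17.3% of all genes, and after scaling for Icam1, against 4.63%.

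The first db/db-GABP-KD library decided the values of Rela and Nfkbia. Rela had a log2 fold change over db/db-veh of 1.14 ± 0.52 with it (SE; limma adjusted p = 0.345) and 0.37 ± 0.36 without it (adjusted p = 0.798). For Nfkbia it was 0.51 ± 0.60 with it (adjusted p = 0.610) and -0.30 ± 0.46 without it (adjusted p = 0.880). With it, both were lower after median-of-ratios scaling, at 0.58 ± 0.34 for Rela (adjusted p = 0.835) and -0.07 ± 0.43 for Nfkbia (adjusted p = 0.991). As deposited, Icam1 and Nfkb1 moved less, to 1.21 ± 0.33 and 0.83 ± 0.29 without that library. After median-of-ratios scaling Nfkb1 had 0.34 ± 0.26 with it and 0.60 ± 0.24 without it (limma adjusted p = 0.516). Icam1 had 0.89 ± 0.27 and 0.97 ± 0.30 on that scale. db/db-GABP-KD 1 was the library with the lowest mitochondrial share (47.9%), and its neutrophil markers summed to 37.3 FPKM, against 9.31 and 6.70 FPKM in the others of its group. After median-of-ratios scaling these sums were 21.8, against 10.5 and 7.30. All 10 were detected in that library, Ly6g at no more than 0.126 FPKM. The part of the mitochondrial share and of these markers in the result was not tested.

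In db/db-veh relative to db/m-veh no member separated the diabetic from the lean kidneys. None of the 9 passed, where 0.093% of all genes did (12 of 12897), and none had an unadjusted p under 0.05, where 11.5% of all genes did. After median-of-ratios scaling 0.171% of all genes passed and no member did. Il1b had the largest log2 fold change, 0.72 ± 0.45 (SE; 95% interval -0.24 to 1.68; limma adjusted p = 0.579), and Pycard the lowest, -0.50 ± 0.32 (-1.18 to 0.18; adjusted p = 0.588). For Icam1 the log2 fold change was -0.08 ± 0.34 (-0.79 to 0.63; adjusted p = 0.958), an interval that leaves room for a difference in either direction. After median-of-ratios scaling it was 0.24 ± 0.27 (-0.35 to 0.82; adjusted p = 0.780), and the values of Nfkb1 and Rela likewise turned sign, to 0.28 and 0.10, while Il1b had 0.99 and Pycard -0.43. Groups overlapped for all 9, beside 14.4% of all genes that were lower without overlap and 1.46% that were higher.

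The response to GABP-OE was then set against that to GABP-KD in the same fit, on the question whether the effects differ. None of the 9 members passed as deposited (0.132% of all genes did) or after median-of-ratios scaling (0.0775% did). Casp1, Gsdmd and Il18 had an unadjusted p under 0.05, against 4.13% of all genes with a larger effect of GABP-OE, with differences of 1.01 ± 0.44, 1.11 ± 0.47 and 1.59 ± 0.57 on the log2 scale (SE; limma adjusted p = 0.836, 0.791 and 0.584). For Icam1 the difference was -0.08 ± 0.48 (95% interval -1.08 to 0.93) and for Nfkb1 it was 0.00 ± 0.40 (-0.85 to 0.84), so these data bound neither difference closely. After median-of-ratios scaling the 5 differences were 1.06 for Casp1, 1.10 for Gsdmd, 1.63 for Il18, 0.05 for Icam1 and 0.11 for Nfkb1.

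Other genes of the same pathways were taken from 5 lists, which were also chosen with earlier results of these data known. In db/m-GABP-OE relative to db/m-veh, 3 of 13 inflammasome sensors and partners that could be tested rose and none fell, where 1.9% of all genes passed. The list median was 0.68 beside 0.38 over all genes, and after median-of-ratios scaling none passed and the median was 0.36 beside 0.04. Casp4, which encodes the caspase-11 that senses bacterial lipopolysaccharide in mouse cells, had 2.51, 4.19 and 2.79 FPKM in db/m-GABP-OE, against 0.766, 0.435 and 0.346 FPKM in db/m-veh (a log2 change of 1.85 ± 0.33, SE; limma adjusted p = 0.00891). P2rx7, the ATP-gated channel that triggers NLRP3, had 1.39, 1.57 and 2.03 FPKM, against 0.641, 0.295 and 0.269 FPKM in db/m-veh (1.28 ± 0.26; adjusted p = 0.0185). Nlrc4, the sensor that acts with NAIP proteins, had 1.13, 1.33 and 1.04 FPKM, against 0.637, 0.153 and 0.134 FPKM in db/m-veh (1.10 ± 0.26; adjusted p = 0.0379). No db/m-GABP-OE library overlapped the db/m-veh libraries for these genes.

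Of 13 NF-kB target genes tested, 4 rose in db/m-GABP-OE and none fell, where 1.9% of all genes passed. The list median was 1.18 beside 0.38 over all genes, and after median-of-ratios scaling none passed and the median was 0.88 beside 0.04. The chemokine genes were Ccl5, with 5.65, 7.08 and 3.88 FPKM in db/m-GABP-OE, against 0.228, 1.07 and 1.00 FPKM in db/m-veh (a log2 change of 2.30 ± 0.44, SE; limma adjusted p = 0.0131), and Cxcl10, with 3.20, 4.76 and 4.08 FPKM, against 1.26, 0.195 and 0.523 FPKM in db/m-veh (2.05 ± 0.40; adjusted p = 0.0142). Ccl2, which attracts monocytes, had 3.50, 2.08 and 2.76 FPKM in db/m-GABP-OE, against 0, 0.387 and 0.282 FPKM in db/m-veh (2.20 ± 0.52; adjusted p = 0.0380), from 86 and 6 fragments. Vcam1, an adhesion molecule like Icam1, had 4.41, 5.47 and 6.27 FPKM, against 1.65, 1.44 and 0.616 FPKM in db/m-veh (1.80 ± 0.43; adjusted p = 0.0386). None of these 7 genes passed after median-of-ratios scaling, where Cxcl10 was nearest (1.70; adjusted p = 0.0806), and each lost its call without db/m-veh 3 and without db/m-GABP-OE 2. Casp4 and Ccl5 kept theirs without any other single library, while the other 5 lost theirs without further ones.

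None passed among 11 genes of interleukin-1 family signalling (median 0.63), 7 NF-kB subunits and inhibitors (0.94) and 19 upstream kinases and adaptors (0.52) in db/m-GABP-OE relative to db/m-veh. After median-of-ratios scaling these medians were 0.36, 0.65 and 0.16. The inhibitor gene Nfkbie had the lowest adjusted p of those named, with 3.53, 3.08 and 1.95 FPKM in db/m-GABP-OE, against 0.323, 0.578 and 1.20 FPKM in db/m-veh (a log2 change of 1.52 ± 0.41, SE; limma adjusted p = 0.0689). Bcl3, an atypical inhibitor family member that acts in the nucleus, followed with 4.25, 6.16 and 7.62 FPKM, against 3.14, 1.19 and 1.86 FPKM in db/m-veh (1.38 ± 0.41; adjusted p = 0.0956). Il33, an alarmin of the interleukin-1 family, averaged 7.54 ± 1.41 FPKM in db/m-GABP-OE and 2.61 ± 1.52 FPKM in db/m-veh (SD, n = 3 each; limma adjusted p = 0.199).

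No listed gene passed in db/db-GABP-KD relative to db/db-veh or in db/db-veh relative to db/m-veh. In db/db-GABP-KD the list medians were 0.38 for sensors and partners, 0.74 for interleukin-1 signalling, 0.84 for subunits and inhibitors, 0.52 for upstream genes and 0.73 for targets, beside 0.42 over all genes. After median-of-ratios scaling they were 0.04, 0.26, 0.44, 0.12 and 0.40 in the same order, beside 0.00. Ccl5 had 2.47, 3.76 and 0.889 FPKM in db/db-GABP-KD, against 0.307, 0 and 0.678 FPKM in db/db-veh (a log2 change of 1.74 ± 0.44, SE; limma adjusted p = 0.297). Lcn2, a marker of tubule injury, had 37.8, 8.04 and 1.74 FPKM, against 0, 0.544 and 14.8 FPKM in db/db-veh, and the groups overlapped. In db/db-veh 3 the neutrophil chemokine genes Cxcl1 and Cxcl2 had 9.03 and 3.84 FPKM, against at most 0.628 and 0.0710 FPKM in db/m-veh, and this was also the library with the highest Il1b. These genes were not high in that library alone. Cxcl1 had a log2 change of 2.13 in db/m-GABP-OE over db/m-veh (limma adjusted p = 0.216) and of 1.52 in db/db-GABP-KD over db/db-veh (adjusted p = 0.356). For Cxcl2 these were 0.79 (adjusted p = 0.520) and 0.71 (adjusted p = 0.477).

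**Figure D3:**
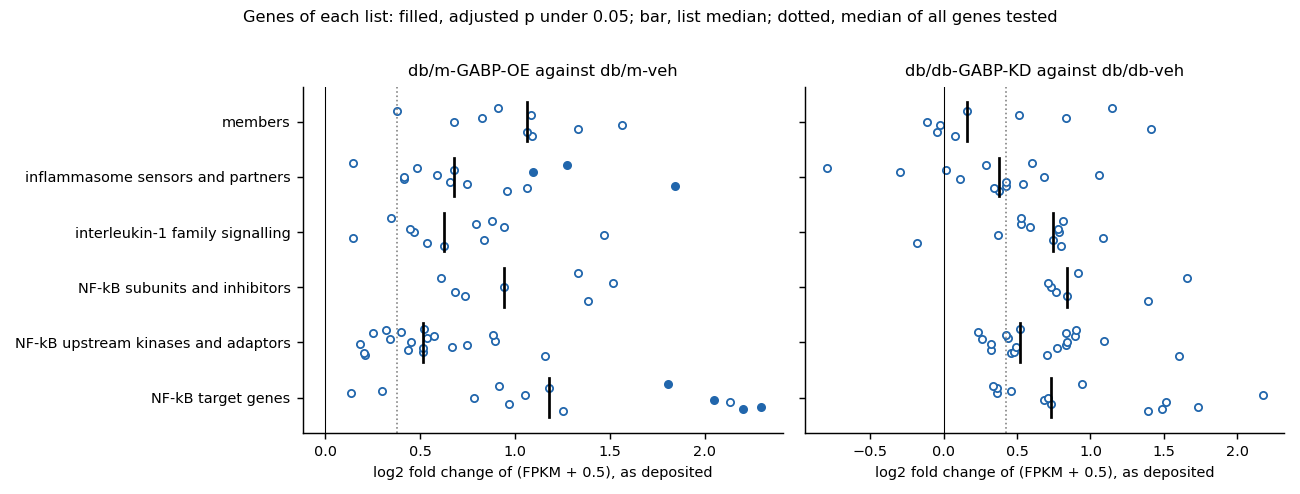
Log2 fold change of FPKM + 0.5 as deposited (x axis) for every tested gene of the members and of 5 pathway lists (rows), in db/m-GABP-OE relative to db/m-veh (left) and db/db-GABP-KD relative to db/db-veh (right). Filled points passed an adjusted p of 0.05, short bars mark list medians and the dotted line the median of all genes. Filled points occur on the left alone, 3 among sensors and partners and 4 among target genes, and none passed after median-of-ratios scaling.

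Markers of other cell types differed between the same groups. In db/m-GABP-OE the 10 macrophage markers, all detected in each of its libraries, summed to 130 to 241 FPKM, against 29.5 to 34.4 FPKM in db/m-veh, where Adgre1 was at 0 in the first library. The ratio of means was 5.98, and 4.33 after median-of-ratios scaling. The exact permutation p was 0.1, the smallest that 3 libraries against 3 allow. Lyz2, C1qa and C1qb were the most abundant of them, at 64.5, 44.0 and 35.9 FPKM in db/m-GABP-OE, against 6.46, 5.95 and 8.63 FPKM in db/m-veh.

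The 9 lymphocyte markers in the table summed to 6.17 to 11.4 FPKM in db/m-GABP-OE, against 2.09 to 4.31 FPKM in db/m-veh, and the 9 endothelial markers to 155 to 225 FPKM, against 88.8 to 109 FPKM (exact permutation p = 0.1 for both). The ratios of means were 2.88 and 1.78, and 2.15 and 1.31 after median-of-ratios scaling. Plvap made up most of the endothelial sum, at 114 FPKM in db/m-GABP-OE and 53.7 FPKM in db/m-veh. Ehd3 alone among them was not higher on average (8.51 against 8.56 FPKM). Neutrophil markers overlapped, at 2.40 to 3.83 FPKM against 1.89 to 6.13 FPKM, and Ly6g was at 0 in all 6 of these libraries. Adipose markers (6 in the list) summed to 18.2 to 30.4 FPKM in db/m-GABP-OE, against 4.16 to 11.7 FPKM in db/m-veh, without overlap as deposited (exact permutation p = 0.1) and with overlap after median-of-ratios scaling (p = 0.2). Among them Cfd averaged 10.7 FPKM in db/m-GABP-OE, against 0.502 FPKM in db/m-veh, Adipoq was at 0 in all 3 db/m-veh libraries, and Lep was at 0 in all 6. The 5 red blood cell markers summed to 301 to 944 FPKM in db/m-GABP-OE, against 582 to 1187 FPKM in db/m-veh, with overlap on both scales. The mitochondrial share was 58.6% to 64.2% in db/m-GABP-OE, against 67.9% to 77.8% in db/m-veh. In bulk tissue, more cells of a type and more RNA per cell cannot be told apart, and the part of these markers in the members' values was not tested.

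In db/db-GABP-KD macrophage markers summed to 18.3, 73.2 and 87.7 FPKM, against 13.7 to 27.7 FPKM in db/db-veh, with overlap (ratio of means 3.15; exact permutation p = 0.2). The lowest of these was db/db-GABP-KD 1, the library in which the FPKM of Icam1, Rela and Nfkbia was highest as deposited. After median-of-ratios scaling Rela and Nfkbia were still highest there. Scaled Icam1 was instead lowest of its group in that library, at 4.74 against 6.56 and 4.91. Endothelial markers summed to 79.1 to 130 FPKM, against 38.0 to 74.8 FPKM in db/db-veh, without overlap as deposited and with overlap after median-of-ratios scaling. Red blood cell markers summed to 32.9 to 266 FPKM in db/db-GABP-KD, against 134 to 330 FPKM in db/db-veh, with overlap as deposited and without it after scaling, and adipose markers overlapped on both scales. In db/db-veh relative to db/m-veh red blood cell, lymphocyte and endothelial markers were lower without overlap on both scales, with ratios of means of 0.291, 0.1503 and 0.610 as deposited (exact permutation p = 0.1 for each). The lymphocyte sums in db/db-veh were near 0, at 0.380 to 0.578 FPKM, with 5, 4 and 2 of the 9 markers detected. Macrophage markers were lower without overlap as deposited (ratio of means 0.602; exact permutation p = 0.1) and overlapped after scaling (p = 0.2). The part of these markers in the members' values was not tested.

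**Figure D4:**
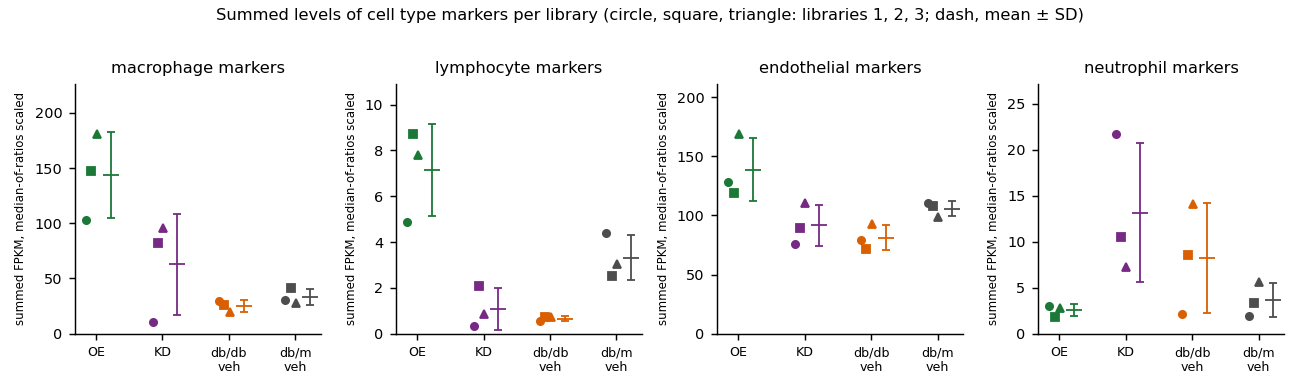
Summed FPKM of macrophage, lymphocyte, endothelial and neutrophil markers per library after median-of-ratios scaling (y axis), by group along the x axis, with mean and SD (n = 3). The 3 db/m-GABP-OE libraries lie above all others for macrophage and lymphocyte markers, and db/db-GABP-KD 1 is lowest for macrophage and highest for neutrophil markers.

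Across the 12 libraries the members did not vary as one block. Of 36 pairs of tested members, 23 had a positive Pearson correlation of log2 scaled FPKM, with a median of 0.11. These are descriptions over libraries that share groups and an unequal mitochondrial share, and carry no p. The highest were Nfkb1 with Icam1 (0.68), Casp1 with Il18 (0.64) and Rela with Nfkbia (0.63, where db/db-GABP-KD 1 is the highest point of both), and the lowest was Gsdmd with Rela (-0.41). Gsdmd was closer to Il18 (0.56), Casp1 (0.54) and Pycard (0.52) than to any NF-kB member. Its correlation with Il1b was -0.29, below those with Nfkb1 (0.19) and Icam1 (0.15).

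Among 9300 other genes with a mean of at least 1 FPKM, those most like a member over the 12 libraries were named by the same measure. For Icam1 they were Gbp2 (Pearson 0.83) and Phlda3 (0.82), and for Nfkb1 Rab8b (0.92) and Extl3 (0.91). For Nfkbia they were Ilf2 (0.93) and the immediate early gene Ier2 (0.88), and for Rela Srebf1 (0.93) and Iqgap1 (0.92). For Gsdmd they were Mmp11 (0.95) and Cxcl14 (0.94), for Casp1 Poc1b (0.79) and Retnla (0.77), and for Il18 B4galt4 (0.88) and 2700081O15Rik (0.87). The nearest genes of Pycard were Cdk4 (0.88) and Pet100 (0.87), and those of Il1b were Rin2 (0.85) and Mars (0.84). With 9300 candidates and 12 libraries, correlations of this size say nothing of shared control.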

How the data were processed

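Per the labels' protocols, kidney poly(A) RNA was fragmented, reverse transcribed with random primers and sequenced in pairs on an Illumina machine, in 12 libraries. The authors deposited 1 FPKM value per gene and library. Per the submitters' processing notes, HTSeq (no version) and GRCm39 were used. The sources used here name no aligner, annotation or strand setting. With GENCODE M21 (GRCm38) exon lengths, the FPKM of 21474 of 21846 genes became whole fragments (98.3%, within 0.05), so coordinates are those of GRCm38. Casp1 came out in steps of 0.477 fragments, and its fragments were counted by that step. PCR duplicates could not be removed, so exact 95% intervals and the limit of 3 fragments cover counting error only.

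limma 3.58.1 (R 4.3.3) was run on log2(FPKM + 0.5), which understates changes of low genes, for 12897 genes with at least 0.3 FPKM in at least 3 libraries. All 12 libraries entered 1 fit with a variance trend, no block and two-sided tests, with Benjamini-Hochberg adjusted p under 0.05 over all genes tested. Because FPKM is not a count, no count model was the main test. Median-of-ratios factors came from 5884 genes above FPKM 1 in every library. Marker sums were compared by two-sided exact permutation of libraries. As a check of the code, the fit was also run on simulated counts with the same gene means in every library, apart from planted changes, and a fixed dispersion. These counts lacked the unequal mitochondrial shares, so the check gives no error rate for these data. The other steps used pandas 2.3.3, scipy 1.17.1, numpy 2.4.6 and matplotlib 3.10.9 in Python 3.11.15.

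The members and lists were chosen with earlier results of these data known. Named pathway genes are up to 4 called genes per list and comparison by adjusted p, or the 2 with the largest change where none was called. For each member the 2 most alike genes are named. The remarks on Cxcl1 and Cxcl2, on the most abundant macrophage and endothelial markers and on Ehd3 were chosen after their values were seen. Alternatives were other pseudocounts, filters and scalings, no trend, library weights, a replicate block, fits of the compared groups only, voom on fragments and each library left out. Median of ratios with the block, with each library left out and with voom were added after seeing the data.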

Additional observations from a re-analysis of the deposited data

How the results depend on the processing

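No result of the members or of the named pathway genes passed in the opposite direction under any alternative. The count of members called in db/m-GABP-OE relative to db/m-veh, 0 of 9, became 2 with a pseudocount of 1 (Il18 and Icam1), 7 with library weights, 1 with the replicate number as a block (Icam1) and 3 with the compared groups alone (Gsdmd, Il18 and Icam1). Over the whole table the calls in these settings were 321, 2757, 277 and 590 in the same order, against 245 in the main fit. Leaving out 1 library gave 0 to 4 members called. With library weights 1 member was called in db/db-GABP-KD relative to db/db-veh (Icam1, limma adjusted p = 0.0346, where all alternatives gave up to 0.614) and 1 in the difference of effects (Casp1, adjusted p = 0.0248, up to 1.00). In db/db-veh relative to db/m-veh it stayed at 0 throughout. The causes were not tested.

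Over the whole table, calls in db/m-GABP-OE relative to db/m-veh (245) became 62 with a pseudocount of 0.1, 159 with a filter of FPKM 1, 27 with median of ratios, 15 with an equal sum over nuclear genes, 33 with quantile normalization, 123 without a trend, 2757 with library weights, 590 with the compared groups alone, 66 with voom on fragments and 7 with voom and median of ratios. Calls in db/db-veh relative to db/m-veh (12) became 2 without a filter, 22 with median of ratios, 35 with the nuclear sum, 26 with quantile normalization, 642 with library weights, 19 with the compared groups alone, 5 with voom and 3 with voom and median of ratios. Calls in db/db-GABP-KD relative to db/db-veh (0) became 1 without a filter, 5 with median of ratios, 6 with the nuclear sum, 11 with quantile normalization, 158 with library weights and 5 with voom and median of ratios. Calls in the difference of effects (17) became 7 without a filter, 10 with median of ratios, 7 with the nuclear sum, 11 with quantile normalization, 6 without a trend, 376 with library weights, 2 with voom and 4 with voom and median of ratios.

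Leaving out 1 library gave 39 to 559 calls in db/m-GABP-OE (39 without db/m-veh 3, 41 without db/m-GABP-OE 2, 75 without db/m-GABP-OE 3, 78 without db/m-veh 2 and 559 without db/db-GABP-KD 1), 2 to 48 in db/db-veh, 0 to 4 in db/db-GABP-KD and 1 to 40 in the difference. After median of ratios these ranges were 7 to 77, 4 to 52, 0 to 11 and 0 to 46, with 0 members called in any of them. Correlations of the deviations of same-numbered libraries were -0.06 to 0.07 for db/m-GABP-OE with db/m-veh, -0.45 to 0.24 for db/db-GABP-KD with db/db-veh and 0.08 to 0.35 for db/db-veh with db/m-veh. For differently numbered libraries they were -0.07 to 0.09, -0.36 to 0.51 and -0.32 to 0.22 in the same order. Deviations of 3 libraries from their own mean depend on each other, so these values do not decide whether the replicate numbers pair the libraries. With the replicate block the calls were 277, 0, 13 for these comparisons and 11 for the difference, and after median of ratios with the block 17 in db/m-GABP-OE, 4 in db/db-GABP-KD and 5 in the difference.

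Nlrp3, Il18, Casp1, Il1b and Pycard rest on few fragments, and a p that misses the threshold does not show that they did not differ. The sign of uncalled values changed most often for Nfkb1 in the difference of effects (23 of 38 settings), followed by Icam1, Nfkb1 and Rela in db/db-veh relative to db/m-veh and Casp1 and Nfkbia in db/db-GABP-KD relative to db/db-veh (18 or 19 settings each).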
